A study of Mus musculus with 6 samples.

Results

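Intermediate filaments were represented by 9 genes, which were found by symbol among the 13226 genes counted in whole tibialis anterior (TA) muscle of the mouse. They were the keratins Krt18 and Krt8, the filament genes Des, Vim, Nes, Synm and Sync, and the lamins Lmna and Lmnb1. Krt18 was chosen from its difference between these same muscles in an earlier fit of the counts, and the other members were proposed with those results in view, so the differences between groups are given for the members as a description, without a test. Muscles were taken from male C57BL/6 mice aged 8 weeks, 7 days after local delivery of an adeno-associated viral vector of serotype 6 (AAV6). The vector carried a short hairpin RNA against Yap, the co-activator at the end of the Hippo pathway, in 3 muscles (AAV6:Yap-shRNA), and 3 other muscles received a control vector that the titles call empty and the vector field names AAV6:LacZ-shRNA. Control and treated muscles came in pairs from 3 mice, but no label ties a muscle number to an animal, and the p-values given below treat the muscles as separate samples.

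Intermediate filaments are rope-like polymers that give cells mechanical strength, and their makeup differs between cell types. In skeletal muscle fibres, desmin (Des) links neighbouring myofibrils at the Z-disc to each other and to the sarcolemma, with synemin (Synm) and syncoilin (Sync) as partners. Vimentin (Vim) belongs to fibroblasts, endothelium and leukocytes, nestin (Nes) to myogenic and neural progenitors and to the postsynaptic zone of the fibre, and keratins 8 and 18 (Krt8, Krt18) form the obligate pair of simple epithelia. The lamins line the inside of the nuclear envelope, where lamin A/C (Lmna) is the form of differentiated muscle and lamin B1 (Lmnb1) is a form more abundant in dividing cells.

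Krt18 and Krt8 are neighbours on chromosome 15 of the mouse genome build GRCm38. Krt18 (ENSMUSG00000023043) lies on the plus strand at chr15:102028180-102032027, and Krt8 (ENSMUSG00000049382) lies on the minus strand at chr15:101996698-102004482. The 23697 bases between them separate the 5′ ends of the pair. The 250 bases before the RefSeq start of each (assembly GRCm38.p6) are printed 5′ to 3′ on the gene's own strand, with the window of Des, the most abundant member, for contrast. Krt18 and Krt8 were chosen for this because both were highest in Yap-shRNA muscles 1 and 3. Among the control muscles Krt8 did not follow Krt18. Capitals mark the searched motifs, read on either strand. The windows lie at chr15:102027966-102028215 for Krt18 (plus strand), chr15:102004343-102004592 for Krt8 (minus strand) and chr1:75360042-75360291 for Des (plus strand).
Krt18: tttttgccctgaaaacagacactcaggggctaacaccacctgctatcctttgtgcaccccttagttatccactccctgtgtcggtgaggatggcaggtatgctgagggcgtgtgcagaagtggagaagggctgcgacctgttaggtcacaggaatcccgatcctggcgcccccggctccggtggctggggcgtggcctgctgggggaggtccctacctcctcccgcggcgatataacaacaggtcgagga
Krt8: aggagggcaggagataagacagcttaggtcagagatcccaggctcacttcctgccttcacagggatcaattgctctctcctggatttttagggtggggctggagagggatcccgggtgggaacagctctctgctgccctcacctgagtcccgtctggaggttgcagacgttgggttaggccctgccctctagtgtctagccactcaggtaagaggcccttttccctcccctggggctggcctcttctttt
Des: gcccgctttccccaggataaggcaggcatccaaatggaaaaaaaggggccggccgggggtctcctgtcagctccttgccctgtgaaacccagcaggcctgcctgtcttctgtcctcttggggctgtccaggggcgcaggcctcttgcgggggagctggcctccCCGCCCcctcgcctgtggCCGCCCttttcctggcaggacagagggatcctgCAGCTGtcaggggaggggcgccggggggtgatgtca

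The windows of Krt18 and Krt8 hold none of the 5 motifs searched, which were a TEAD motif (GGAATG), an E-box (CAGCTG), a GC box (GGGCGG), an AP-1 motif (TGANTCA) and TATAAA. TEAD proteins are the DNA-binding partners of Yap, and their motif was in 0 of the 9 windows read for 8 members (Lmna has a pair of starts), beside 12.6% of the 32851 RefSeq windows of the same length. The AP-1 motif was likewise in 0 of 9 windows, beside 6.75% of all windows. The E-box, a site of myogenic factors, was found only in the Des window among the members and in 13% of all windows. The GC box was in 4 of 9 windows, those of Des, Nes, Sync and 1 start of Lmna, beside 32.7% of all, and TATAAA was in that of Vim alone, beside 12.4% of all. The window was 60.4% G and C for Krt18, 58% for Krt8 and 67.2% for Des, where the median of all windows was 52.4%. By the gene bounds of the GENCODE annotation, the Vim and Lmna windows lie inside the gene, and those of Krt18, Krt8, Nes and Sync in part. No window was read at the annotated 5′ end of Lmna, or for Lmnb1.

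The 6 libraries held 11987167 to 12710393 counts each. Yap1 (ENSMUSG00000053110), which encodes Yap, was counted 915, 781 and 833 times in control muscles 1 to 3 and 381, 311 and 495 times in Yap-shRNA muscles 1 to 3. In CPM (counts scaled to library size with TMM factors) this was 68.3 ± 2.96 in control and 31.8 ± 7.80 in Yap-shRNA muscles (SD, n = 3 each), or 46.5% of control, and the groups did not overlap. The log2 fold change was −1.10 ± 0.16 (SE), with an adjusted p = 0.323 in edgeR's quasi-likelihood test and p = 0.1 in a two-sided exact permutation test, the smallest that 3 against 3 muscles allow. Of 13113 genes tested, 0 (0%) passed an adjusted p of 0.05 with edgeR's quasi-likelihood test, 211 (1.61%) had an unadjusted p under 0.05, and DESeq2 called 5 genes, none of them a member. The libraries of control muscle 1 and Yap-shRNA muscle 3 stood apart in tendon markers, whose sum over 6 genes was 679.3 and 556.4 CPM there and 127.1 to 176.2 CPM in the other libraries. In whole muscle, fewer cells of a type and less RNA per cell cannot be told apart.

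Krt18 was counted 24, 1 and 19 times in control muscles 1 to 3 and 136, 3 and 141 times in Yap-shRNA muscles 1 to 3. This was 1.87, 0.0836 and 1.56 CPM against 11.4, 0.230 and 11.2 CPM. Yap-shRNA muscles 1 and 3 were above every other library and Yap-shRNA muscle 2 was below control muscles 1 and 3, so the groups overlapped, and the muscle numbered 2 was the lowest of its group on both sides. The means were 1.17 ± 0.954 CPM in control and 7.63 ± 6.41 CPM in Yap-shRNA muscles (SD, n = 3), a ratio of 6.52, and the fitted log2 fold change was 2.67 ± 1.00 (SE). Without Yap-shRNA muscle 2 the log2 fold change was 3.25 ± 0.56, and without both muscles numbered 2 it was 2.72 ± 0.22, an alternative added after seeing the data. The error stayed wide on leaving out any other single muscle. The log2 fold change then ran from 2.14 ± 1.05 (without control muscle 2) to 3.18 ± 1.24 (without control muscle 1). Since no source ties a number to an animal, whether these muscles share an animal was not tested.

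Krt8, the partner of Krt18 in simple epithelia, was counted 4, 4 and 5 times in control muscles and 34, 1 and 25 times in Yap-shRNA muscles 1 to 3. Yap-shRNA muscles 1 and 3 were again above the rest, and Yap-shRNA muscle 2 was the lowest library of all. The table held no gene under 60 counts in total, so Krt8 was in it only through its counts in Yap-shRNA muscles 1 and 3. The same was true of Krt18. The Krt8 difference between groups therefore adds no support to that of Krt18. Krt8 stood at 0.352 ± 0.0518 CPM in control and 1.64 ± 1.42 CPM in Yap-shRNA muscles (SD, n = 3), a ratio of 4.66. It did not pass the filter on low counts, and a fit without that filter gave a log2 fold change of 2.18 ± 0.87 (SE), or 2.75 ± 0.39 without Yap-shRNA muscle 2. The annotation holds a pseudogene of Krt8 and a non-coding gene whose exons share 101 bases with those of Krt8 on the opposite strand, and since no strand setting of the counting is given, reads of these cannot be told apart.

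Krt18 took most of the keratin pair's reads wherever there were enough to tell. Its share of the counts of both genes was 85.7% (95% exact Clopper-Pearson interval 67.3 to 96.0%) in control muscle 1 and 79.2% (57.8 to 92.9%) in control muscle 3. It was 80% (73.2 to 85.7%) and 84.9% (78.6 to 90.0%) in Yap-shRNA muscles 1 and 3, so the intervals of the libraries where the pair was low and where it was high overlapped. In control muscle 2 it was 1 of 5 counts (20%, 0.505 to 71.6%) and in Yap-shRNA muscle 2 it was 3 of 4 (75%, 19.4 to 99.4%), too few to place it. The intervals cover counting error only.

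**Figure D1:**
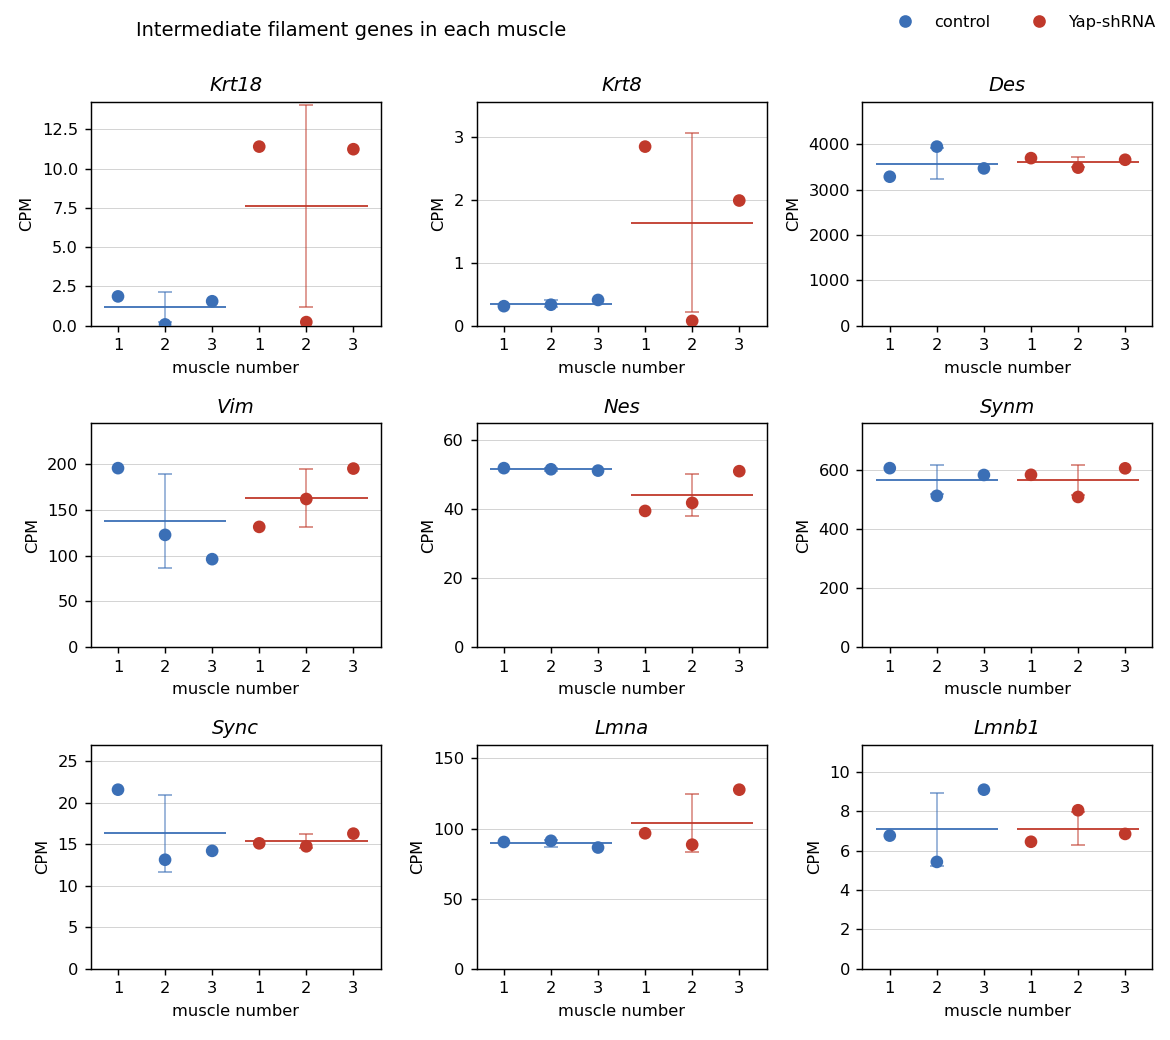
CPM (y axis, from 0, a scale of its own for each gene) of the 9 members in each muscle, by muscle number (x axis). Points are muscles, lines are group means and bars are SD (n = 3). Krt18 and Krt8 are high in Yap-shRNA muscles 1 and 3 and low in muscle 2, Nes is the member whose groups do not overlap, and the group means of Des and Synm nearly coincide.

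The spread of Krt18 among muscles of 1 group was wide for its level. The within-group SD of its log2 CPM was 2.32, above 99.0% of the 500 genes nearest to it in level, whose median SD was 0.35. For Krt8 the SD was 1.41, above 91.0% of its 500 nearest genes, whose median was 0.47. Krt18 and Krt8 reached the floor of 60 counts in total only through their highest libraries, in the Yap-shRNA group. Such a floor favours genes of low level with a wide spread, and it applied to their nearest genes too. How far it set the ranks of Krt18 and Krt8 was not tested. Vim was also variable, with an SD of 0.42 and a rank above 98.8% of its nearest genes, whose median was 0.13. Des ranked above 25.8%, Nes above 51.4%, Lmnb1 above 69.0%, Lmna above 79.4% and Sync above 89.0% of theirs.

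Among marker lists, none passed an adjusted p of 0.05 for any gene with edgeR's quasi-likelihood test, and 5 of the 6 hepatocyte genes tested were lower at an unadjusted p under 0.05, beside 0.717% of all genes. Krt18 and Krt8 are also keratins of hepatocytes, so the summed hepatocyte markers were set beside them. This sum, mostly of albumin (Alb), was 0.934, 49.6 and 414.5 CPM in the controls (muscles 1 to 3) and 13.3, 36.5 and 0.478 CPM in the Yap-shRNA group (muscles 1 to 3). Yap-shRNA muscle 3, with 11.2 CPM of Krt18, held the lowest hepatocyte sum, and control muscle 3, with the highest, held 1.56 CPM of Krt18. The tendon sum was 679.3, 176.2 and 127.1 CPM in control muscles 1 to 3, with 1.87, 0.0836 and 1.56 CPM of Krt18. In Yap-shRNA muscles 1 to 3 the tendon sum was 170.6, 145.3 and 556.4 CPM, with 11.4, 0.230 and 11.2 CPM of Krt18. The epithelial and mesothelial markers listed (Epcam, Cdh1, Msln, Upk3b, Wt1 and Cldn4) were not analysed here.

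Markers of the neuromuscular junction summed to 112.1, 89.2 and 97.5 CPM in control muscles and 108.0, 67.8 and 108.5 CPM in the Yap-shRNA group (muscles 1 to 3), so that the sum, too, was lowest in the muscle numbered 2 of each group, by a far smaller margin than Krt18. Endothelial markers summed to between 284.2 and 340.7 CPM and mature fibre markers to between 120362 and 145742 CPM over all libraries, with overlapping groups. Markers of satellite cells and regenerating fibres summed to 104.6, 88.0 and 81.6 CPM in control and 78.2, 76.6 and 125.0 CPM in Yap-shRNA muscles. Smooth muscle and pericyte markers ran from 535.9 to 703.7 CPM. Schwann cell markers went the other way from the junction, with 38.6, 76.7 and 58.3 CPM in control and 57.1, 68.7 and 47.8 CPM in Yap-shRNA muscles. Their sum was highest in the muscle numbered 2 of each group. Yap-shRNA muscle 2 was also the lowest of its group in the mature fibre, satellite cell, fibroblast, smooth muscle and tendon sums, where control muscle 2 was not. The part of any of these cells in the keratin values was not tested.

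**Figure D2:**
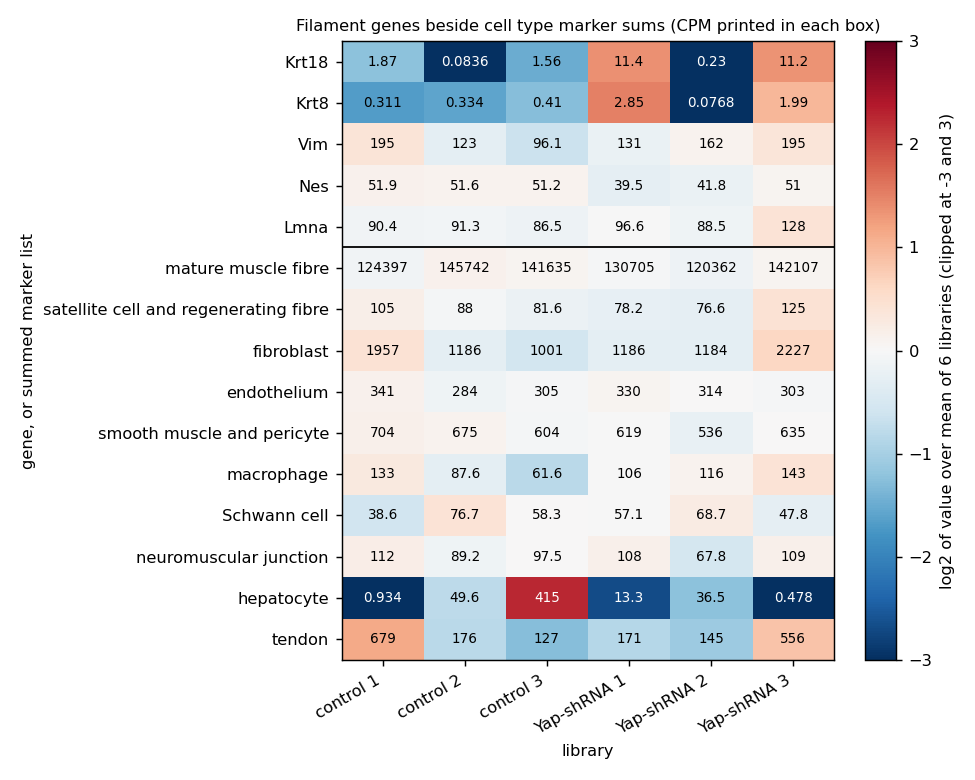
Colour gives the log2 of each value over its mean in the 6 libraries (x axis), clipped at −3 and 3, and the number in each box is the CPM, for 5 members (above the line) and for summed marker lists (y axis). Krt18 and Krt8 are red in Yap-shRNA muscles 1 and 3, while the hepatocyte sum is highest in control muscle 3 and the tendon sum in control muscle 1 and Yap-shRNA muscle 3.

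Des, the main filament of the fibre, was high in every muscle. It stood at 3283, 3946 and 3466 CPM in control muscles and 3692, 3483 and 3657 CPM in the Yap-shRNA group (muscles 1 to 3). All Yap-shRNA values lay within the range of the controls. The means were 3565 ± 342.5 and 3611 ± 111.9 CPM (SD, n = 3), and the log2 fold change was 0.018 ± 0.10 (SE). Des (chr1:75360329-75368579, plus strand) shares 220 exonic bases with the antisense gene Gm15179.

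Synm, the large filament protein that joins desmin to the costamere, stood at 605.9, 512.3 and 582.8 CPM in control and 583.4, 508.5 and 605.3 CPM in the Yap-shRNA group (muscles 1 to 3). The ranges of the groups were nearly the same, the means were 567.0 ± 48.8 and 565.7 ± 50.8 CPM (SD, n = 3), and the log2 fold change was −0.0034 ± 0.11 (SE). Its ratio to Des, which needs no scaling between libraries, was 18.5, 13.0 and 16.8% in control and 15.8, 14.6 and 16.6% in Yap-shRNA muscles.

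Sync, a filament-like protein that binds desmin and the dystrophin complex, stood at 21.6, 13.1 and 14.2 CPM in control and 15.1, 14.7 and 16.3 CPM in the Yap-shRNA group (muscles 1 to 3). Control muscle 1 was above the other 5 libraries, which were within 13.1 to 16.3 CPM. The means were 16.3 ± 4.59 and 15.4 ± 0.798 CPM (SD, n = 3). The log2 fold change was −0.086 ± 0.18 (SE), and without control muscle 1 it turned to 0.17 ± 0.12. Exons of Sync share 782 bases with Rbbp4 on the opposite strand, so part of its reads may be those of Rbbp4.

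Nes was the member whose groups did not overlap. It stood at 51.9, 51.6 and 51.2 CPM in control muscles and 39.5, 41.8 and 51.0 CPM in the Yap-shRNA group (muscles 1 to 3). Yap-shRNA muscle 3 lay just below the lowest control, and the other treated muscles lay well below. The mean was 51.6 ± 0.357 CPM in control and 44.1 ± 6.09 CPM in Yap-shRNA muscles (SD, n = 3), or 85.6% of control, and the log2 fold change was −0.22 ± 0.11 (SE). It was −0.34 ± 0.11 without Yap-shRNA muscle 3, −0.15 ± 0.12 without muscle 1 and −0.19 ± 0.13 without muscle 2 of that group. As a ratio to Des the groups did overlap, at 1.58, 1.31 and 1.48% in control and 1.07, 1.20 and 1.40% in Yap-shRNA muscles. Over all genes tested, 693 (5.28%) had groups that did not overlap, beside 1 of the 8 members tested.

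Vim stood at 195.4, 122.6 and 96.1 CPM in control and 131.3, 161.7 and 194.9 CPM in the Yap-shRNA group (muscles 1 to 3). Control muscle 1 and Yap-shRNA muscle 3 were the highest, and the groups overlapped. The means were 138.0 ± 51.4 and 162.6 ± 31.8 CPM (SD, n = 3), and the log2 fold change was 0.24 ± 0.24 (SE). It depended on single muscles, at 0.57 ± 0.17 without control muscle 1, 0.033 ± 0.22 without control muscle 3 and 0.085 ± 0.26 without Yap-shRNA muscle 3.

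Among markers of cells known to make vimentin, the macrophage and fibroblast sums were highest in the same muscles as Vim, control muscle 1 and Yap-shRNA muscle 3. The endothelial sum was highest in control muscle 1 but not high in Yap-shRNA muscle 3. The tendon sum and the satellite cell and regenerating fibre sum were highest in the same muscles as Vim too, so the match was not particular to macrophages and fibroblasts. The macrophage sum was 133.0, 87.6 and 61.6 CPM in control and 106.1, 115.8 and 142.7 CPM in the Yap-shRNA group (muscles 1 to 3), which put the 4 lower libraries in the same order as Vim did. The fibroblast sum was 1957, 1186 and 1001 CPM in control and 1186, 1184 and 2227 CPM in Yap-shRNA muscles. The endothelial sum was 340.7, 284.2 and 305.4 CPM in control and 329.5, 314.0 and 303.1 CPM in Yap-shRNA muscles, so that Yap-shRNA muscle 3, high in Vim, was the lowest treated muscle there. None of the 8 macrophage genes or the fibroblast genes was called by edgeR's quasi-likelihood test, and neither was any other gene. The log2 fold change was positive for 8 of 8 macrophage genes (median 0.34), 4 of 5 fibroblast genes (0.11) and 4 of 5 endothelial genes (0.0076). Over all genes it was positive for 6424 of 13113, with a median of −0.0025. The part of these cells in the Vim values was not tested. Counts of Vim were 5.95, 3.11 and 2.77% of those of Des in control and 3.56, 4.64 and 5.33% in Yap-shRNA muscles.

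Of the lamins, Lmna stood at 90.4, 91.3 and 86.5 CPM in control and 96.6, 88.5 and 127.8 CPM in the Yap-shRNA group (muscles 1 to 3). Yap-shRNA muscle 3 was above the rest, which were within 86.5 to 96.6 CPM. The means were 89.4 ± 2.57 and 104.3 ± 20.7 CPM (SD, n = 3), and the log2 fold change was 0.22 ± 0.14 (SE), or 0.050 ± 0.11 without Yap-shRNA muscle 3. That muscle was also high in tendon and fibroblast markers (556.4 and 2227 CPM). Control muscle 1 was high in both as well (679.3 and 1957 CPM), with 90.4 CPM of Lmna. The part of these cells in the Lmna values was not tested.

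Lmnb1 stood at 6.77, 5.43 and 9.11 CPM in control and 6.46, 8.06 and 6.86 CPM in the Yap-shRNA group (muscles 1 to 3), with every treated value within the range of the controls. The means were 7.10 ± 1.86 and 7.13 ± 0.834 CPM (SD, n = 3), and the log2 fold change was 0.0052 ± 0.21 (SE). Its counts were 7.49, 5.95 and 10.5% of those of Lmna in control and 6.68, 9.11 and 5.37% in Yap-shRNA muscles, so the balance of the lamins overlapped between the groups.

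Levels per length set the members in order. CPM values were divided by the exon length of the GENCODE annotation (CPM per kb), from 1437 bases for Krt18 to 7933 for Synm. In control muscles the level was 949.7 ± 91.2 for Des, 71.5 ± 6.15 for Synm, 29.1 ± 10.8 for Vim, 15.3 ± 0.440 for Lmna, 8.04 ± 0.0557 for Nes, 5.69 ± 1.60 for Sync and 2.40 ± 0.628 CPM per kb for Lmnb1 (SD, n = 3). Krt18 followed with 0.814 ± 0.664 and Krt8 with 0.180 ± 0.0264. In Yap-shRNA muscles Krt18 was at 5.31 ± 4.46 and Krt8 at 0.838 ± 0.726 CPM per kb, beside 5.37 ± 0.279 for Sync and 961.8 ± 29.8 for Des. Within 1 SD of each other, neighbours such as Krt18 and Sync in Yap-shRNA muscles had no clear order. Over the 7 cytoplasmic filament genes, Des made up 86.7 to 91.1% of the summed level per length, Synm 5.59 to 7.57% and Vim 1.96 to 4.08%, while Krt18 made up 0.00504 to 0.718% and Krt8 0.00378 to 0.132%.

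**Figure D3:**
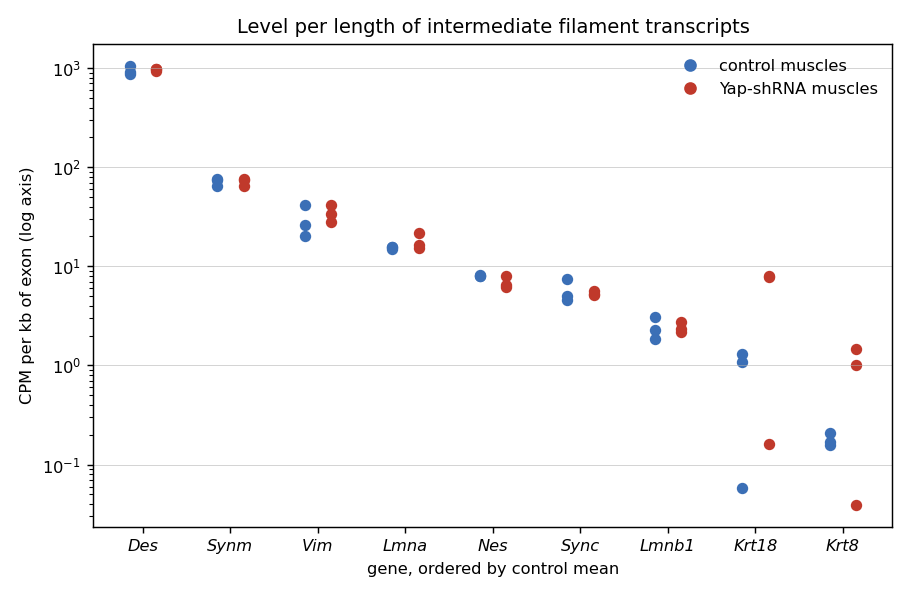
CPM per kb of exon (y axis, log scale) for the 9 members (x axis, ordered by control mean), with a point for each muscle. Des lies above all others in every muscle, and Krt18 reaches from near the bottom of the plot in the muscles numbered 2 to the levels of Nes and Sync in Yap-shRNA muscles 1 and 3. Krt8 is lowest in Yap-shRNA muscle 2.

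By counts, 0 of the 8 members tested passed an adjusted p of 0.05, as did 0% of all genes, and 1 of 8 (Krt18, which was chosen on this contrast) had an unadjusted p under 0.05, beside 1.61% of all genes. The median log2 fold change of the members tested was 0.012, beside −0.0025 over all genes. Of 28 other intermediate filament genes listed (other keratins, neurofilaments, lens filaments and lamin B2), 6 were tested and 0 had an unadjusted p under 0.05. Their median log2 fold change was −0.18, but −0.012 without control muscle 1 and −0.10 without Yap-shRNA muscle 1. The 3 with the smallest p were Krt80, an epithelial keratin (0.65 ± 0.46), Iffo1, a filament-family protein of the nucleus (−0.18 ± 0.14), and Krt10, a keratin of the epidermis (−0.31 ± 0.26). Krt80, with 18, 4 and 9 counts in control and 16, 13 and 20 in Yap-shRNA muscles 1 to 3, did not share the range of Krt18. It too was lowest in the muscle numbered 2 of each group.

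The partners that anchor filaments were measured for 16 of 20 listed genes (plakins, desmosome proteins and desmin-binding proteins). Of these, 0 were called after adjustment and 2 were higher at an unadjusted p under 0.05, beside 0.892% of all genes. The median log2 fold change was 0.019, and it ran from −0.061 without control muscle 2 to 0.12 without control muscle 1. Ppl, the plakin periplakin, which binds keratin and vimentin filaments, was 2.65, 3.43 and 2.63 CPM in control and 3.02, 6.37 and 5.34 CPM in the Yap-shRNA group (muscles 1 to 3) (log2 fold change 0.76 ± 0.28, SE). Its highest value was in Yap-shRNA muscle 2, where Krt18 was low, and the groups overlapped. Cryab, the chaperone of desmin known as alpha B-crystallin, was 530.2, 682.5 and 678.8 CPM in control and 728.3, 929.8 and 766.0 CPM in Yap-shRNA muscles, which did not overlap (log2 fold change 0.36 ± 0.13, SE). Xirp1, an actin-binding protein of the myotendinous junction and of strained fibres, had a log2 fold change of 0.29 ± 0.14, with overlapping groups. None of the 3 passed the adjusted threshold in edgeR's quasi-likelihood test.

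All 20 listed partners and processing enzymes of the nuclear lamina were tested, 0 were called after adjustment and 1 was higher at an unadjusted p under 0.05, beside 0.892% of all genes. The median log2 fold change was 0.041, or 0.080 without control muscle 1 and 0.069 without control muscle 3, and −0.014 without both muscles numbered 2. The gene that was higher was Syne3 (nesprin-3, which ties the nuclear envelope to plectin and intermediate filaments), with 21, 5 and 7 counts in control and 31, 20 and 24 in Yap-shRNA muscles 1 to 3 (log2 fold change 1.17 ± 0.47, SE). Control muscle 1 lay above the lowest treated muscle, so the groups overlapped. Fntb, a subunit of the farnesyltransferase that modifies prelamin A and B-type lamins, was 16.4, 17.0 and 14.1 CPM in control and 18.8, 18.0 and 18.3 CPM in Yap-shRNA muscles (log2 fold change 0.21 ± 0.12), and its groups did not overlap. Tmem43, a membrane protein of the inner nuclear envelope, had a log2 fold change of 0.17 ± 0.15.

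**Figure D4:**
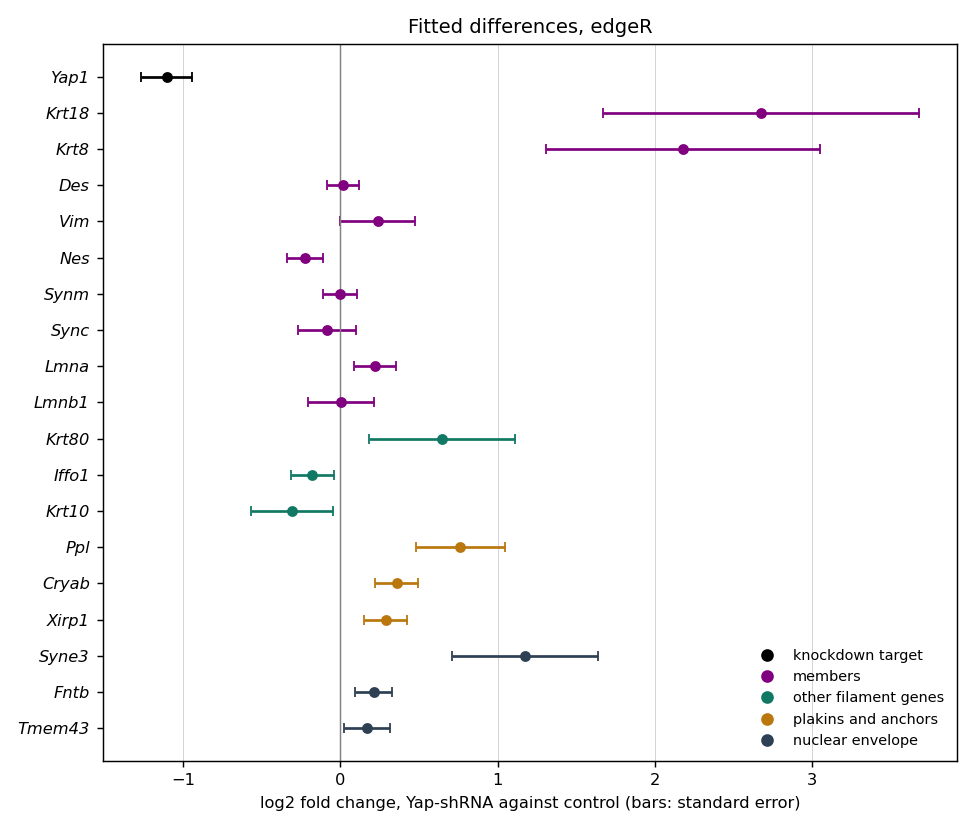
Log2 fold change of Yap-shRNA against control muscles (x axis, bars are SE, n = 3 per group) for Yap1, the 9 members and the 3 genes of smallest unadjusted p from each of 3 lists (y axis). Krt18 and Krt8 have the largest values and the widest bars of the genes drawn, and the values of Des, Synm and Lmnb1 are at 0 within their errors.

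The 5 tested genes whose log2 CPM was most like that of Krt18 over the 6 libraries were Nup188 (Pearson r = 0.989), Procr (0.984), Mtpn (0.983), Tmem64 (0.978) and Smarca4 (0.975). These are given as a description, since the libraries are the same for each and 6 points over many genes leave high values for some. Their own range was small, with the highest library 1.13 times (Smarca4) to 1.44 times (Nup188) the lowest, so that none of them followed Krt18 in size.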

How the data were processed

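Polyadenylated RNA of 6 whole TA muscles was sequenced, with bcl2fastq 2.20.0.422 and build GRCm38 named in the submitters' processing notes. The authors deposited unnormalised read counts for each gene. The aligner, counter, annotation and strand setting are not given in the sources used here. The table of 13226 genes held no gene under 60 counts over the 6 libraries.

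Counts were scaled by TMM and fitted in R 4.3.3 by the quasi-likelihood method of edgeR 4.0.16, with the treatment group as single term, for the 13113 genes that passed filterByExpr, with Benjamini-Hochberg adjustment. Krt8 did not pass and was fitted without the filter. The script was tested on simulated counts. Alternatives used DESeq2 1.42.0 and limma 3.58.1, among others. Genes named were Yap1, the members, the 3 genes of smallest unadjusted p in each of 3 lists, and the 5 genes most correlated with Krt18. Members, lists and motifs were chosen with earlier results of these data known. Positions and exon lengths came from GENCODE M21 and promoters from RefSeq.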

Additional observations from a re-analysis of the deposited data

How the results depend on the processing

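Yap1 was called by DESeq2 (log2 fold change −1.10, adjusted p = 5.05e-07), by edgeR's likelihood ratio test (−1.10, adjusted p = 1.72e-06) and without control 1 and Yap-shRNA 3 (−1.26, adjusted p = 0.0375), a setting added after seeing the data. Genes past the threshold numbered 0 in edgeR's quasi-likelihood test, 5 with DESeq2, 5 with the likelihood ratio test, 0 to 1 on leaving out each muscle, and 4 without control 1 and Yap-shRNA 3, and none was a member. The departures of muscles 1, 2 and 3 from the mean of their group correlated between groups at −0.062, 0.23 and −0.27, and 2 of 6 libraries correlated best with their own number, which does not settle whether muscles of 1 number came from 1 animal. With a replicate block 0 genes passed, Yap1 was at −1.13 (adjusted p = 0.0700) and Krt18 at 2.67 ± 0.26 (SE). Krt18 ran from 2.08 ± 1.83 (limma-voom) to 3.25 ± 0.56 (without Yap-shRNA 2) and could not be fitted with at least 10 counts in every library. Over 132 combinations of member and setting, 131 moved by less than the spread between muscles (the within-group SD of log2 CPM). The exception was Des, at 0.12 without the muscles numbered 2. Leaving out 1 of 3 muscles can hardly shift a group mean by more than that SD, so this count says little about robustness. The sign changed in 15 combinations, in Des, Synm, Sync and Lmnb1. At 1 to 5 counts of Krt18 or Krt8 in a library, depth limits what their ratio can show.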

Other observations

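Chrna1, the alpha subunit of the muscle acetylcholine receptor, was chosen after its values were seen. It stood at 22.3, 16.5 and 16.9 CPM in control and 35.7, 12.1 and 31.1 CPM in the Yap-shRNA group (muscles 1 to 3), so Yap-shRNA muscles 1 and 3 were the highest of the 6 libraries and Yap-shRNA muscle 2 the lowest. The log2 fold change was 0.50 ± 0.32 (SE). Of the 5 neuromuscular junction markers Chrna1 was the only 1 with a positive log2 fold change, the others were at −0.25 (Chrne), −0.32 (Colq), −0.24 (Chrnb1) and −0.15 (Musk), and the median of the list was −0.24. The Chrna1 difference was not called by edgeR's quasi-likelihood test.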
